A study of Homo sapiens with 2 samples.

Results

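The APOBEC3 genes are 7 neighbouring protein-coding genes on human chromosome 22, APOBEC3A, APOBEC3B, APOBEC3C, APOBEC3D, APOBEC3F, APOBEC3G and APOBEC3H. They were taken by symbol from the 20298 protein-coding genes listed in count tables of an hTrmt13 CLIP-seq experiment, and all 7 were found. CLIP-seq isolates a protein with its bound RNA by antibody and sequences that RNA, here after base modifications were removed with AlkB-type enzymes. hTrmt13 (TRMT13) is a human tRNA methyltransferase. MDA-MB-231, an established triple-negative breast carcinoma line, was the only cell type, and the labels name no treatment or genetic change. There was 1 group of 2 replicates, each with 1 table per read mate (R1 and R2), and 0 control libraries were analysed here. Nothing in the labels says that the replicates came from separate cultures. The 7 genes were chosen because the R1 counts of APOBEC3A differ strongly between the replicates, so every comparison of the replicates below is a description with no test.

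APOBEC3 enzymes remove the amino group of cytosine in single-stranded DNA, which leaves uracil, and some of them also edit RNA. They are known as restriction factors against retroviruses and retroelements, many are induced by interferon, and HIV-1 counters several of them through its Vif protein. In tumours, breast cancer among them, APOBEC3A and APOBEC3B are known as sources of clustered cytosine mutations. Each catalytic domain holds a histidine, a glutamate and a pair of cysteines around a zinc ion. The coding sequences of APOBEC3A, APOBEC3C and APOBEC3H held 1 such motif, and those of APOBEC3B, APOBEC3D, APOBEC3F and APOBEC3G held 2.

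Sequence likeness among these genes bears on every count below, because alignment must place a read in 1 copy or another. The stretches that encode the zinc motif are shown for the genes whose counts are set beside APOBEC3A, from the GENCODE release 29 transcripts, 5′ to 3′. Capitals mark the codons of the histidine, the glutamate and both cysteines.
APOBEC3A, coding bases 208 to 318: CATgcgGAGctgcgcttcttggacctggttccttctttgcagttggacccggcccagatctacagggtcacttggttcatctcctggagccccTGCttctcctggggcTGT
APOBEC3B, second motif, coding bases 757 to 867: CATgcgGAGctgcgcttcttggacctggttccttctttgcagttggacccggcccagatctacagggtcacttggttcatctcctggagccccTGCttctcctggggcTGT
APOBEC3G, second motif, coding bases 769 to 873: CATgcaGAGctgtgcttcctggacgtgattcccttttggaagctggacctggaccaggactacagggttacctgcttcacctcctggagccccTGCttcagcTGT
APOBEC3C, coding bases 196 to 300: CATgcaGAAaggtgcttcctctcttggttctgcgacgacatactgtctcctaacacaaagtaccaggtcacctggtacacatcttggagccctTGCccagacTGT

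The APOBEC3A stretch and the second APOBEC3B stretch had 0 mismatches over 111 bases. Aligned over 559 bases, the APOBEC3A and APOBEC3B coding sequences were 94.6% identical, and those of APOBEC3A and APOBEC3G were 81.7% identical over 564 bases. Of the 30-base words of all annotated APOBEC3A transcripts, 26.5% also occurred in a transcript of APOBEC3B. Of those transcripts, 1 runs through APOBEC3B itself, and over the APOBEC3A transcripts that end before APOBEC3B the share was 18.4%. Among APOBEC3B words 48.3% occurred in another member, among APOBEC3F words 31.1%, among APOBEC3D words 23.3%, among APOBEC3G words 9.61%, among APOBEC3C words 6.89% and among APOBEC3H words 0%. The pairs APOBEC3B with APOBEC3F (first motifs) and APOBEC3D with APOBEC3F (second motifs) also had 0 mismatches over 105 bases. How the authors treated reads with several matches is not given in the sources used here, so the counts of single genes are uncertain. The shares are over spliced transcripts, whereas the counts also take in introns, so they do not measure the size of that uncertainty.

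On hg19, the cluster runs over 151 kb, all 7 genes on the plus strand. APOBEC3A (ENSG00000128383.12_2) is listed at 39348746 to 39388783 and APOBEC3B (ENSG00000179750.15_3) at 39378352 to 39388809. APOBEC3C (ENSG00000244509.3_2) follows at 39410088 to 39416357 and APOBEC3D (ENSG00000243811.9_3) at 39417118 to 39429281. Further along lie APOBEC3F (ENSG00000128394.16_2) at 39436609 to 39449915, APOBEC3G (ENSG00000239713.8_2) at 39473010 to 39483748 and APOBEC3H (ENSG00000100298.15_2) at 39493229 to 39500072. Counts are over whole spans, introns included.

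The APOBEC3A span encloses nearly all of APOBEC3B. The overlap of 10.4 kb is 99.8% of the APOBEC3B span and 26.1% of the APOBEC3A span, and 29.6 kb of APOBEC3A lie before the start of APOBEC3B. In GENCODE release 29 (GRCh38), where all 7 genes have the same versioned IDs and the same lengths as in the tables, 4 of 5 APOBEC3A transcripts end within 10.4 kb of the gene start. The other, APOBEC3A-205, runs to the end of the span, 40.0 kb from the gene start, and accounts for its length. Annotated exons cover 5.89% of the APOBEC3A span, against 18.1% for APOBEC3B, 44.9% for APOBEC3C and 50.6% for APOBEC3G.

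APOBEC3A, a single-domain enzyme known from monocytes and interferon-treated cells, was recovered at very different levels in the replicates. Its R1 count was 1993 in replicate 2 and 74 in replicate 1, and its R2 count was 1721 in replicate 2 and 54 in replicate 1. Both mates of replicate 2 were thus far above both mates of replicate 1. Mates are reads of the same fragments, so the R2 tables are not further replicates. Scaled to the total over all listed features (CPM, counts per 1e6), the R1 level was 96.8 CPM in replicate 2 against 2.65 CPM in replicate 1, with a mean of 49.7 ± 66.6 CPM (SD, n = 2). The R2 level, scaled to the smaller R2 totals, was 195.7 CPM in replicate 2 against 4.801 CPM in replicate 1. By R1 count APOBEC3A ranked 59 of 20298 protein-coding genes in replicate 2 and 5534 in replicate 1.

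The replicates also differed in how the total count was spread over features, with a count in 60280 features in replicate 2 and 51331 in replicate 1 (R1). Scaled to total counts, the median protein-coding gene with a mean R1 count of at least 10 stood at 1.11 as a log2 ratio (replicate 2 over replicate 1), and with TMM scaling (edgeR's trimmed mean of ratios) this median was 0.01. Ratios below are TMM-scaled, that is, relative to the bulk of genes. On this scale the APOBEC3A count was 17.1-fold higher in replicate 2, with an exact 95% interval of 13.6 to 21.9 that covers counting error only and takes PCR reads as independent molecules. The R2 tables gave 20.8-fold (15.9 to 27.9). Of 13220 protein-coding genes with that mean count, 12 were at least 4-fold higher in replicate 2 (0.0908%) and 10 at least 4-fold lower (0.0756%). Among the 7 genes, 6 reached the count minimum, of which 3 were at least 4-fold higher and 0 at least 4-fold lower. Since the choice of genes used this contrast, nothing is read from that share. In the R2 tables, 12 of 12870 genes (0.0932%) were at least 4-fold higher, and 10 (0.0777%) at least 4-fold lower, with 2 of the 4 members past the minimum among the higher ones. With scaling to total counts, 2.39% of genes in R1 and 1.24% in R2 were at least 4-fold higher.

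**Figure D1:**
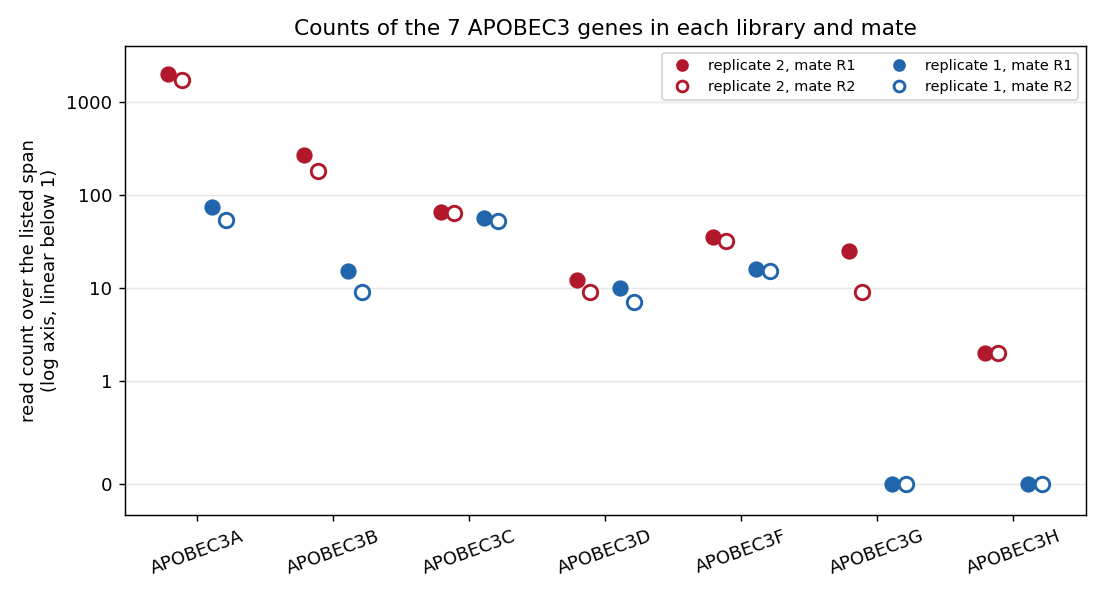
Read counts over the listed span of each APOBEC3 gene (vertical axis, logarithmic above 1), with 1 point per library and mate: red for replicate 2 and blue for replicate 1, filled for R1 and open for R2. APOBEC3A and APOBEC3B lie far higher in replicate 2, APOBEC3C and APOBEC3D lie close together in both replicates, and APOBEC3G and APOBEC3H have 0 counts in replicate 1.

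APOBEC3B, a 2-motif nuclear enzyme, had R1 counts of 267 in replicate 2 and 15 in replicate 1, and R2 counts of 181 in replicate 2 and 9 in replicate 1. It followed APOBEC3A in direction, at 11.3-fold higher in replicate 2 in R1 (95% interval 6.74 to 20.5) and 13.1-fold in R2 (6.77 to 29.2). Because the span of APOBEC3B lies inside that of APOBEC3A apart from its last 26 bases, nearly every read counted for APOBEC3B was open to be counted for APOBEC3A as well. These are therefore not a pair of separate observations.

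Taking the APOBEC3B counts off APOBEC3A leaves the counts of the 29.6 kb before APOBEC3B, 1726 in replicate 2 and 59 in replicate 1 in R1, and 1540 in replicate 2 and 45 in replicate 1 in R2. That part of the span was 18.6-fold higher in replicate 2 in R1 (14.3 to 24.5), and its interval overlaps that of APOBEC3B. The difference between the replicates was thus present outside the shared stretch as well as in it. Per kilobase, the part before APOBEC3B held 58.3 R1 counts in replicate 2 and 1.99 in replicate 1. The APOBEC3B span held 25.5 R1 counts per kilobase in replicate 2 and 1.43 in replicate 1. The exact position of the reads within these stretches is not given by the tables. The 2 piRNA features listed inside the APOBEC3A span, of 29 and 30 bases, had 0 counts in all 4 tables.

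The antisense feature CTA-150C2.16 (ENSG00000249310.2_4, minus strand, 39387564 to 39394214), named APOBEC3B-AS1 in GENCODE release 29, overlaps the last 1.22 kb of APOBEC3A. It had 49 R1 counts in replicate 2 and 0 in replicate 1, and 17 R2 counts in replicate 2 and 1 in replicate 1. Against a floor of 3 counts for the library at 0, this was 10.4-fold higher in replicate 2 in R1. That value takes the count of replicate 2 as exact, so it is not a lower limit. The R2 ratio was 11.1-fold, with a wide counting interval of 1.74 to 464. Whether strand was used in counting is not given in the sources used here, so reads of this feature and of the genes on the other strand cannot be told apart. With the full counts of both APOBEC3B and CTA-150C2.16 taken off, which may take a read off more than once, 84.1% of the APOBEC3A R1 count of replicate 2 remained (exact 95% interval 82.5 to 85.7%), and 79.7% of that of replicate 1 (68.8 to 88.2%). The intervals overlap.

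**Figure D2:**
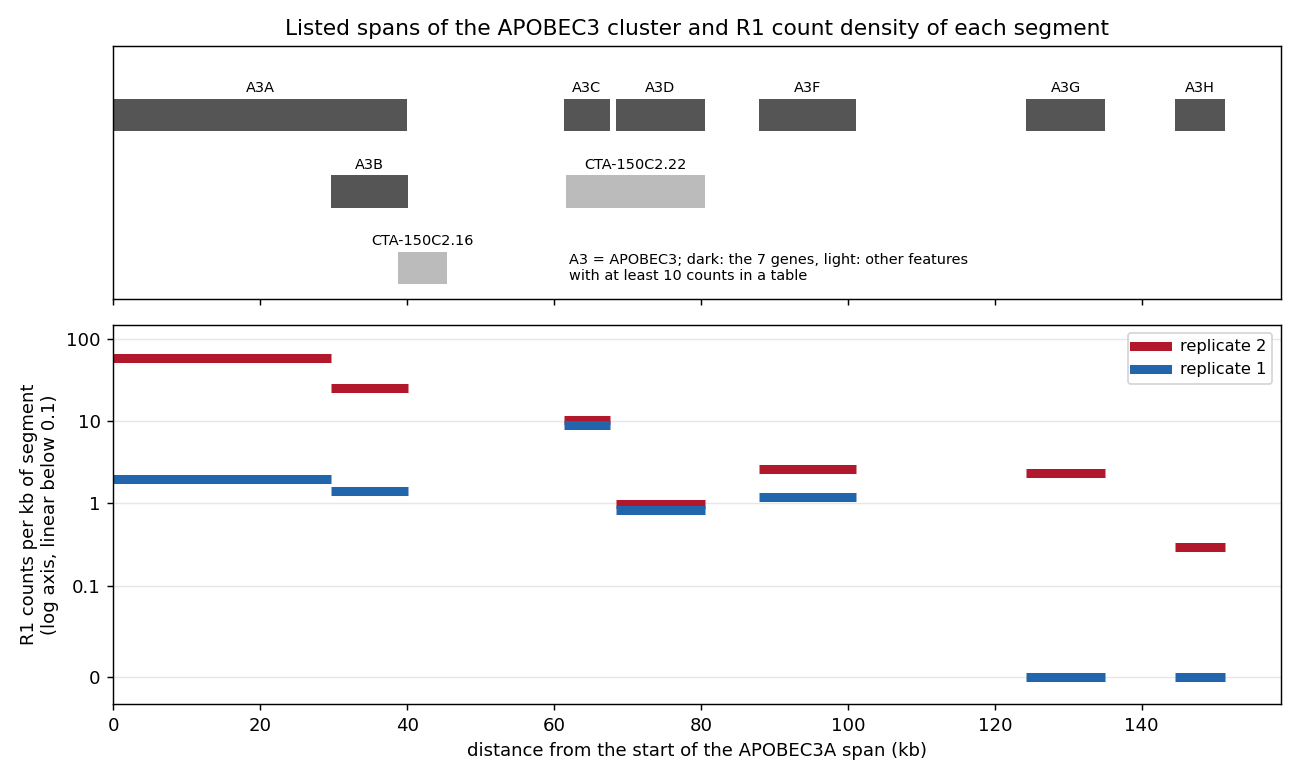
Upper panel: listed spans along the cluster in kilobases from the start of APOBEC3A (dark, APOBEC3 shortened to A3) and the other features with at least 10 counts in a table (light). Lower panel: R1 counts per kilobase of each segment, red for replicate 2 and blue for replicate 1, on a logarithmic axis that is linear below 0.1. APOBEC3A is drawn up to the start of APOBEC3B, where it held 58.3 counts per kilobase in replicate 2 against 1.99 in replicate 1.

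APOBEC3C, a single-domain enzyme with wide tissue expression, had 66 R1 counts in replicate 2 and 56 in replicate 1, and 64 R2 counts in replicate 2 and 52 in replicate 1. All 4 counts lie close together. The TMM-scaled ratio was 0.749 (0.517 to 1.09), so a difference from the bulk of genes was not detectable at this depth. APOBEC3D, a 2-motif antiviral enzyme, had 12 R1 counts in replicate 2 and 10 in replicate 1, a ratio of 0.763 with an interval of 0.302 to 1.97. The log2 ratios of APOBEC3C and APOBEC3D, -0.42 and -0.40, became 0.67 and 0.69 with scaling to total counts, so their direction depends on the scaling.

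A listed read-through gene, CTA-150C2.22 (ENSG00000284554.2_3), spans most of APOBEC3C and all of APOBEC3D. In replicate 2 its R1 count was 78, equal to the sum of both genes, and in replicate 1 it was 65 against a sum of 66. The R2 counts were 73 in replicate 2 and 59 in replicate 1, equal to the sums. These sums are those of a count that takes a read in each feature it falls in, so the read-through gene holds no separate observation. The gap between APOBEC3C and APOBEC3D is 760 bases.

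APOBEC3F, a 2-motif enzyme known for restricting Vif-deficient HIV-1, had 35 R1 counts in replicate 2 and 16 in replicate 1, and 32 R2 counts in replicate 2 and 15 in replicate 1. Its ratio of 1.39 had an interval of 0.750 to 2.69, which includes no difference from the bulk of genes. APOBEC3G, the first of the family described as an antiviral factor and abundant in T cells, had 25 R1 counts in replicate 2 and 0 in replicate 1, and 9 R2 counts in replicate 2 and 0 in replicate 1. Against a floor of 3 counts in replicate 1 (0.107 CPM in R1), this was 5.30-fold higher in R1 and 1.96-fold in R2. These values take the counts of replicate 2 as exact, so they are not lower limits. APOBEC3H, whose stability is known to vary between human haplotypes, had 2 counts in either mate of replicate 2 and 0 in replicate 1, at or under the floor of 3 counts, so no ratio is given.

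Together, APOBEC3C to APOBEC3H held 140 R1 counts in replicate 2 and 82 in replicate 1, a TMM-scaled ratio of 1.09 (0.821 to 1.44). The R2 ratio was 1.02 (0.759 to 1.39). With each stretch counted once, the part of APOBEC3A before APOBEC3B took 80.9% of the 2133 R1 counts of the cluster in replicate 2 (exact 95% interval 79.2 to 82.6%) and 37.8% of the 156 in replicate 1 (30.2 to 45.9%). APOBEC3C took 3.09% in replicate 2 and 35.9% in replicate 1. The largest share thus belonged to APOBEC3A in replicate 2, whereas in replicate 1 the intervals of APOBEC3A and APOBEC3C (28.4 to 44.0%) overlap.

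Per kilobase of span, the R1 level of replicate 2 descended from APOBEC3A (2.42 CPM per kilobase) through APOBEC3B (1.24), APOBEC3C (0.511), APOBEC3F (0.128), APOBEC3G (0.113) and APOBEC3D (0.0479) to APOBEC3H (0.0142). In replicate 1 APOBEC3C led with 0.320 CPM per kilobase, followed by APOBEC3A (0.0662), APOBEC3B (0.0514), APOBEC3F (0.0431) and APOBEC3D (0.0295), with APOBEC3G and APOBEC3H at 0. These orders hold for whole spans, and the APOBEC3A value takes in the reads of nearly all of APOBEC3B. In replicate 1 APOBEC3A had more R1 counts than APOBEC3C (74 against 56) and less annotated exon (2.36 against 2.82 kb). Divided by exon length, the order of APOBEC3A and APOBEC3C in replicate 1 would thus reverse. Mean levels were 1.24 ± 1.66 CPM per kilobase for APOBEC3A, 0.646 ± 0.840 for APOBEC3B and 0.416 ± 0.135 for APOBEC3C (SD, n = 2 each). These neighbours in the order of means do not differ beyond their spread. APOBEC3F stood at 0.0854 ± 0.0599, APOBEC3G at 0.0565 ± 0.0799, APOBEC3D at 0.0387 ± 0.0130 and APOBEC3H at 0.00710 ± 0.0100 CPM per kilobase (SD, n = 2 each). The steps from APOBEC3C to APOBEC3F and from APOBEC3D to APOBEC3H exceeded the spread of both genes, and those from APOBEC3F to APOBEC3G and from APOBEC3G to APOBEC3D did not. Fewer cells with a transcript, less of it per cell and weaker recovery with hTrmt13 cannot be told apart in such counts.

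The mates differed little in how they counted APOBEC3A in replicate 2, and more in replicate 1. The R2 count of APOBEC3A was 86.4% of its R1 count in replicate 2 and 73.0% in replicate 1, against medians over protein-coding genes of 84.6% in replicate 2 and 87.8% in replicate 1. APOBEC3B stood at 67.8% in replicate 2 and 60.0% in replicate 1, APOBEC3C at 97.0% and 92.9%, and APOBEC3F at 91.4% and 93.8%, in the same order of replicates. For APOBEC3G the share was 36.0% in replicate 2, from 9 and 25 counts.

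The genes on either side of the cluster had ratios far smaller than that of APOBEC3A. CBX6, a Polycomb chromobox gene 80.4 kb before the cluster, had 425 R1 counts in replicate 2 and 209 in replicate 1, a ratio of 1.29 (1.09 to 1.53). NPTXR, a neuronal pentraxin receptor gene, had 13 in replicate 2 and 10 in replicate 1. After the cluster, CBX7, another chromobox gene 16.1 kb away, had 47 in replicate 2 and 35 in replicate 1, a ratio of 0.854 (0.540 to 1.36). PDGFB, which encodes a growth factor, had 3 in replicate 2 and 0 in replicate 1. All 3 flanking genes with a count above the floor in both replicates lay within 1.3-fold of the bulk of genes. Among the 51 piRNA features listed in the cluster, 4 had any count, with a highest value of 5.

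**Figure D3:**
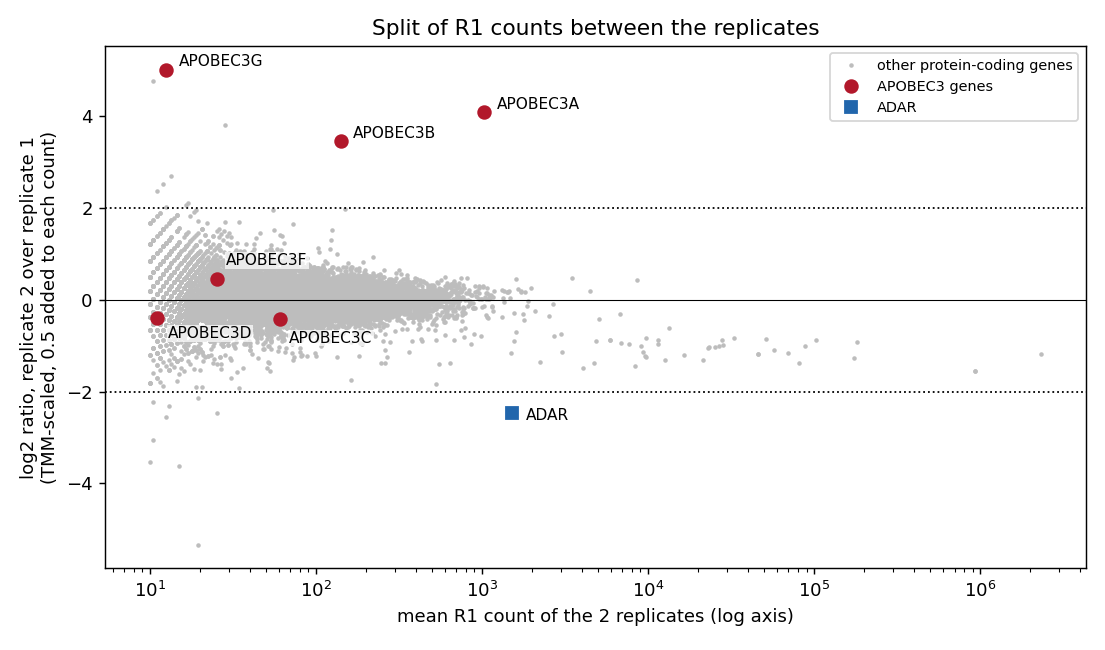
Log2 ratio of replicate 2 over replicate 1 (TMM-scaled, 0.5 added to each R1 count) against the mean R1 count on a logarithmic axis, for 13203 protein-coding genes with a mean count of at least 10, without chromosome Y. Dotted lines mark 4-fold. APOBEC3A (4.09) lies above and ADAR (-2.47) below the dotted lines at mean counts above 1000. The height of APOBEC3G depends on the 0.5 added to its count of 0.

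Few genes of any count had a ratio like that of APOBEC3A. By nearness of the R1 log2 ratio over these 2 libraries, the closest 5 protein-coding genes included APOBEC3B and APOBEC3G of the same cluster. FAM84B had 55 R1 counts in replicate 2 and 2 in replicate 1, and SPINK5, which encodes a skin protease inhibitor, had 21 and 0 in the same order. The fifth, 1 gene on chromosome Y, is not given here. All 4 named have far fewer counts than APOBEC3A. Of 99 protein-coding genes with a mean R1 count of at least 1000, 1 was at least 4-fold higher in replicate 2, APOBEC3A, and 1 at least 4-fold lower, ADAR. Among 4308 genes with a mean from 100 to below 300, 1 was at least 4-fold higher, APOBEC3B, and 0 at least 4-fold lower.

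ADAR, which deaminates adenosine in double-stranded RNA and has an interferon-induced isoform, ran opposite to APOBEC3A. It had 667 R1 counts in replicate 2 and 2351 in replicate 1, and 582 R2 counts in replicate 2 and 1800 in replicate 1. The R1 ratio of 0.180 had an interval of 0.165 to 0.197. The span of ADAR (ENSG00000160710.15_4, chromosome 1, 154554538 to 154600475, minus strand) overlaps 1 other listed gene, AL606500.1, which had 0 counts in all 4 tables. Of the 8 adenosine deaminase genes looked at, 5 had a mean R1 count of at least 10, with 0 at least 4-fold higher and 1 at least 4-fold lower, beside 0.0908% higher and 0.0756% lower over all genes. The other 4 were ADARB1, ADAT2, ADAT1 and ADAT3, with log2 ratios from -0.54 for ADARB1 to 0.33 for ADAT3. ADAT2 and ADAT3 form the enzyme that makes inosine in tRNA anticodons.

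APOBEC2, APOBEC4 and APOBEC1, relatives that lie elsewhere in the genome, had few counts. APOBEC2, a muscle protein, had 12 R1 counts in replicate 2 and 11 in replicate 1, and passed the count minimum. APOBEC4 had 4 in replicate 2 and 2 in replicate 1, and APOBEC1, which edits apolipoprotein B mRNA, had 0 in both. APOBEC4 and APOBEC1 did not reach the count minimum. The APOBEC2 span overlaps OARD1 and the APOBEC4 span overlaps RGL1, so their counts cannot be assigned to APOBEC2 or APOBEC4 alone.

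Of 34 interferon-induced or antiviral genes, 24 had a mean R1 count of at least 10, with 0 at least 4-fold higher and 2 at least 4-fold lower in replicate 2, MX2 and IFITM1, beside 0.0908% higher and 0.0756% lower over all 13220 genes. Their median log2 ratio was -0.12, against 0.01 over all 13220 genes. MX2, a GTPase that restricts HIV-1, had 3 R1 counts in replicate 2 and 27 in replicate 1, a log2 ratio of -3.63. IFITM1 had 10 in replicate 2 and 29 in replicate 1. In the R2 tables the log2 ratio was -2.53 for MX2 and -1.69 for IFITM1, so IFITM1 was not 4-fold lower there. The IFITM1 span lies inside that of IFITM2, so its counts cannot be assigned to IFITM1 alone. At the other end, OAS2, which makes the activator of RNase L, had 19 in replicate 2 and 4 in replicate 1. TREX1, a DNA exonuclease, had 17 and 4 in the same order. OAS2 overlaps RP1-71H24.1 and TREX1 overlaps ATRIP, so these counts cannot be assigned to OAS2 or TREX1 alone. Among the best covered were ZC3HAV1 (271 in replicate 2 and 144 in replicate 1), EIF2AK2 (152 and 109) and SAMHD1 (143 and 72), with log2 ratios from -0.18 to 0.33. The signs of small ratios such as these depend on the scaling.

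The base excision, mismatch repair, translesion and other genes listed for uracil and abasic sites had ratios close to the bulk of genes. All 13 passed the count minimum. Of these, 0 were 4-fold apart in either direction, beside 0.0908% higher and 0.0756% lower over all 13220 genes. Their log2 ratios ran from -0.23 for HMCES, a sensor of abasic sites, to 0.31 for PARP1. REV3L, the catalytic subunit of translesion polymerase zeta, had 566 R1 counts in replicate 2 and 358 in replicate 1. The 5 partners of the Vif ligase, through which HIV-1 degrades APOBEC3 proteins, ran from -0.64 for CUL5, the cullin scaffold, to 0.19 for ARIH2. In the R2 tables the CUL5 log2 ratio was -0.21, and its span overlaps a listed Y_RNA. Of these 5 partners, 0 were 4-fold apart. Because the shares over all genes are so low, nothing is read from 0 in lists of 13 and 5 genes.

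**Figure D4:**
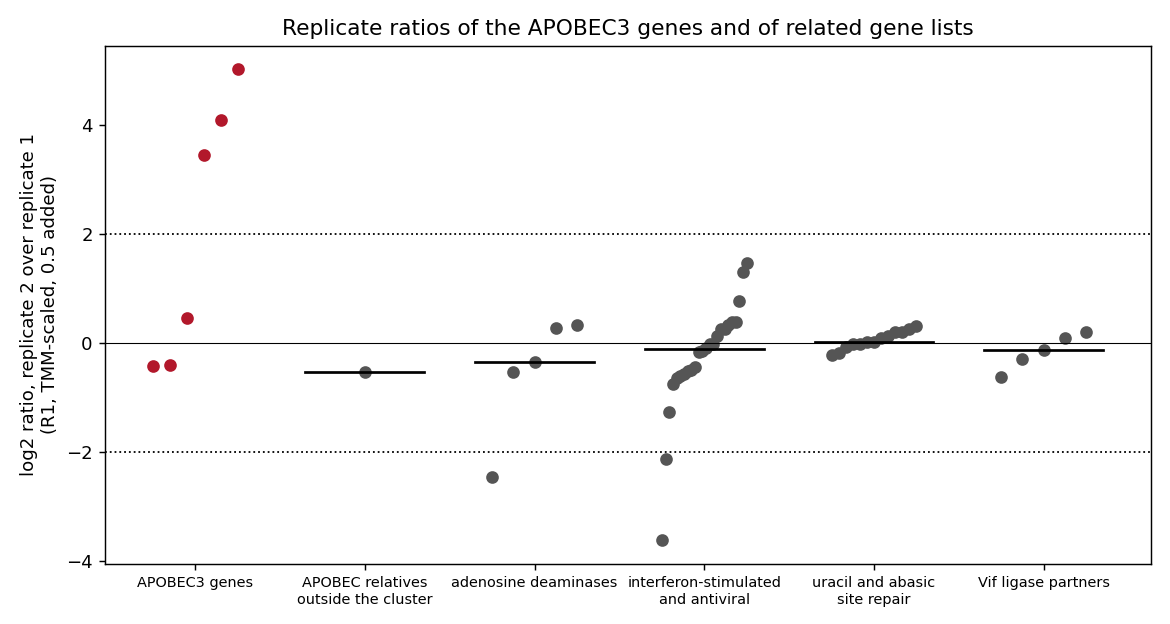
Log2 ratio of replicate 2 over replicate 1 (R1, TMM-scaled, 0.5 added) of each gene with a mean count of at least 10, for the APOBEC3 genes (red, chosen from this contrast) and 5 related lists (grey, black bar for the median). Dotted lines mark 4-fold. APOBEC3G, APOBEC3A and APOBEC3B lie above the upper line, and ADAR, IFITM1 and MX2 lie below the lower one.

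Markers of other cells that express APOBEC3A or APOBEC3G strongly were at or near 0, apart from CSF1R and MS4A1. Of 8 myeloid markers, S100A8, S100A9 and FCGR3A had 0 R1 counts in both replicates, CD14 had 0 in replicate 2 and 2 in replicate 1, and LYZ had 1 and 0 in the same order. Their summed level was 15.1 CPM in replicate 2 and 7.67 in replicate 1, of which CSF1R gave 299 of 310 counts in replicate 2 and 209 of 214 in replicate 1. The CSF1R span overlaps 2 other listed features, CTB-13H5.1 and a Y_RNA, so its counts cannot be assigned to CSF1R alone. Among 7 lymphoid markers, CD2, CD3D, CD3E and GZMB had 0 in both, MS4A1 had 28 in replicate 2 and 36 in replicate 1, and the summed level was 2.23 CPM in replicate 2 and 1.93 in replicate 1. Of the markers high in the labelled line, VIM had 722 counts in replicate 2 and 382 in replicate 1 and EGFR 136 and 128. CAV1 had 29 and 13, AXL 12 and 16 and CD44 7 and 12, in the same order. Of the markers low in this line, CDH1 had 51 in replicate 2 and 40 in replicate 1, so it was not absent. KRT18 had 49 and 22, EPCAM 27 and 20, KRT8 24 and 20, ESR1 20 and 4 and PGR 4 and 0, in the same order. In replicate 2 each low marker except PGR had more counts than AXL and CD44, so raw counts did not separate the high and low sets. The marker spans differ in length and overlap other listed features, such as KRT18 with KRT8 and ESR1 with SYNE1. These counts therefore cannot rank the markers.

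Summed over all 741078 listed features, replicate 2 had 20590398 counts in R1 and 8793089 in R2, and replicate 1 had 27907799 in R1 and 11246823 in R2. Replicate 1 had the larger totals, whereas the TMM scale, which follows the bulk of genes, was 1.57 times as large in replicate 2 as in replicate 1 for R1. A count of 0 in replicate 1 allows up to 3 counts there, or 0.107 CPM in R1.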

How the data were processed

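For each library and mate the authors deposited a table of raw counts, whole numbers of reads over listed spans. The tools named per the submitters' processing notes are bedtools 2.24.0 and Bowtie2 2.3.5.1, and the build is hg19. The alignment options and the handling of strand and of multiple matches were not given in the sources available. Of 741091 lines, 13 repeats were dropped. The APOBEC3 genes and the gene lists were chosen with earlier results of these data known. CPM (counts per 1e6) use the total over all features. Ratios of replicate 2 over replicate 1 were scaled by TMM (edgeR 4.0.16, R 4.3.3) over 18723 features with a mean R1 count of at least 10, and 0.5 was added to each count for log2 ratios. Fold values use the counts themselves. A gene was counted as apart at 4-fold. Intervals are exact Clopper-Pearson 95% intervals (scipy 1.17.1) and cover counting error only, since PCR reads without molecular identifiers are not independent. Ratio and scaling steps were tested on simulated counts with counting error only, so that test does not cover the other differences between these libraries. Alternatives were the R2 table, summed mates, other scalings including DESeq2 1.42.0 size factors, and CPM per kilobase. Further ones were other added counts and count minimums, overlapping counts taken off, and each replicate left out. Gene names outside the 7 follow a rule: other features of the cluster with at least 10 counts in a table, the 2 nearest protein-coding genes on each side, the 5 with the R1 log2 ratio nearest to APOBEC3A, and in each list those highest in CPM and at either end of the ratios. APOBEC4, APOBEC1 and the cell markers were named as well. Some genes of these lists are not reported here. Zinc motifs were sought in translated GENCODE release 29 coding sequences as His-x-Glu, 23 to 28 residues, Pro-Cys, 2 to 4 residues and Cys. Starts are 1-based, and those of the 7 genes match the GENCODE lengths. No hg19 annotation of exons was used. Python 3.11.15 with pandas 2.3.3, numpy 2.4.6 and matplotlib 3.10.9 was used.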

Additional observations from a re-analysis of the deposited data

How the results depend on the processing

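No paired analysis was possible because all samples belong to 1 group. APOBEC3A was higher in replicate 2 under all 8 alternatives of its log2 ratio, from 4.04 to 5.18 against 4.09 as reported. It moved beyond its counting interval with total counts (5.18) and with the nuclear protein-coding total (5.07), since both shift every gene by the same amount. Its mean level became 163 CPM when scaled to the nuclear protein-coding total and 100.3 CPM in the R2 tables. It was 96.8 CPM without replicate 1 and 2.65 CPM without replicate 2, and a mean of 2 values cannot move past 1 SD in this way. APOBEC3A took 83.0% of the counts of the 7 spans in replicate 2, 85.3% in R2 and 80.9% with APOBEC3B taken off, and 43.3% in replicate 1. The share of its counts outside overlapping features in replicate 2 was 86.6% with protein-coding features only and 88.5% in R2. Genes at least 4-fold higher numbered 390 with a mean count of at least 1, 390 with no filter, 2 with at least 30 and 316 with total counts, and genes at least 4-fold lower 184, 472, 1 and 3. The low minimums add genes with few counts. Of 36 levels of the other 6 genes under an alternative, 13 moved by more than 1 SD. These alternatives include a change of unit (CPM per kilobase) and each replicate left out, which cannot move past 1 SD. That tally therefore does not measure how stable the levels are. Of 35 ratios, 6 left their counting interval and 0 called ones changed direction. Depth limits APOBEC3D, APOBEC3G and APOBEC3H most, with 25 counts or fewer in every table.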
